A study of Mus musculus with 14 samples.

Results

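The genes described here encode the nuclear part of the mitochondrial oxidative phosphorylation system, with the factors whose symbols share its prefixes. They were chosen by gene symbol (Nduf, Sdha to Sdhd, Uqcr, Cox4 to Cox8 with a letter a to c, and Atp5) and by a minimum of 10 counts in at least 3 libraries. Of 25239 gene symbols in the deposited table, 95 matched and 90 passed. Of these, 46 belong to complex I (7 core subunits, 29 accessory subunits, 8 assembly factors and 2 entries that are copies of a subunit gene), 4 to complex II, 8 to complex III, 15 to complex IV and 17 to complex V, the ATP synthase. Ndufa4 is counted with complex IV, where its protein is now placed. The 5 that matched but stayed below the minimum were Ndufa4l2 with 10 counts over all 14 libraries, Cox8b with 3, Ndufa11b with 2, and Cox7b2 and Cox8c with 0. Cox4i1, Cyc1 and Cycs lie outside the symbol rule. The table holds 0 symbols with the prefix mt-, used for genes of mitochondrial DNA. Such genes under other symbols were not searched for.

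Oxidative phosphorylation takes electrons from NADH at complex I and from succinate at complex II, passes them through coenzyme Q, complex III and cytochrome c to oxygen at complex IV, and uses the proton gradient so built to make ATP at complex V. Complexes I, III, IV and V mix subunits encoded in the nucleus with subunits encoded in mitochondrial DNA, and complex II is wholly nuclear. In macrophages, alternative activation is known for reliance on this system, and strong inflammatory activation for its restraint.

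The 14 RNA-seq libraries come from bone marrow-derived macrophages of the mouse, cells grown from marrow precursors for 7 to 10 days in medium with 10% fetal bovine serum, 5% horse serum and 20% medium from L929 cells, a source of macrophage growth factor. KO cells came from Ezh2 fl/fl;LysM-Cre +/- mice, in which Cre under the lysozyme M promoter deletes Ezh2, the methyltransferase of the Polycomb repressive complex, in myeloid cells. WT cells came from littermate controls, whose alleles and Cre status the labels do not give. Cells were kept for 24 h in medium conditioned by the mouse hepatoma line Hepa1-6 (CM) or in complete DMEM (control medium), which gave 3 KO CM, 3 KO control, 4 WT CM and 4 WT control libraries. Medium conditioned by other cells was not part of the design, and the labels give neither the age of the mice nor whether each library is a different animal. The p-values therefore speak only to the spread among the libraries, and this spread may be technical.

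Library totals were 40.2 to 61.5 M exon counts (M, mega) in KO CM, 41.8 to 54.4 M in KO control, 41.3 to 85.8 M in WT CM and 45.2 to 82.1 M in WT control. WT libraries 3 and 4 of both media stand apart: their counts differed from WT libraries 1 and 2 of the same group by 60.1 to 103 times the counting variance per gene, against 9.47 to 12.3 times between libraries 1 and 2 or between 3 and 4, and 9.85 to 23.2 times within KO groups. The labels name no reason. The knockout was visible in the 81 bp and 85 bp exons of Ezh2, chosen after their values were seen, which together had 1 to 20 counts in KO libraries and 84 to 169 in WT libraries. The 7 macrophage markers summed to 19030 to 19780 CPM (counts scaled to a common library size, with TMM factors) in KO CM, 21120 to 21810 in KO control, 29210 to 32220 in WT CM and 30060 to 35530 in WT control. Lyz2, lysozyme M, whose promoter drives the Cre, had 9313 to 10320 CPM in KO and 19050 to 24180 CPM in WT, and was lower in KO, with -1.11 ± 0.07 (edgeR adjusted p = 1.8e-06) in CM and -1.10 ± 0.07 (edgeR adjusted p = 9.5e-07) in control medium. Without Lyz2 the sums were 9719 to 10220 CPM in KO CM, 11070 to 11480 in KO control, 10160 to 10690 in WT CM and 10870 to 11740 in WT control, and none of the other 6 was called between genotypes. With CM, Itgam (1.44 in KO and 1.30 in WT) and Fcgr1 (0.60 in KO and 0.52 in WT) were higher, and Adgre1 (-0.96 in KO and -0.69 in WT) and Csf1r (-0.57 in KO and -0.45 in WT) lower, as log2 fold changes. T, NK, B and erythroid markers had too few counts to be tested.

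Per kilobase of counted exon, the genes spanned a wide range of levels, with subunits of complexes IV and V at the top. Cox6b1, a small subunit that joins complex IV dimers, led with a mean over the 14 libraries of 293 CPM per kb, followed by Atp5j2 (subunit f of the ATP synthase, 220 CPM per kb), Cox6c (217 CPM per kb) and Uqcrh, the hinge protein of complex III (215 CPM per kb). These neighbours overlapped: Cox6b1 ran from 233 to 369 CPM per kb over libraries and Atp5j2 from 180 to 253. The median level per kb was 156 CPM for the 5 F1 subunits of complex V, 143 CPM for its 12 Fo and stalk subunits, 129 CPM for the 13 subunits of complex IV, 86.8 CPM for complex II, 66.2 CPM for complex III, 50.9 CPM for the accessory and 45.1 CPM for the core subunits of complex I.

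The assembly factors of complex I, which build the complex but are not part of it, lay far below its subunits, with a median of 5.24 CPM per kb and a range of 1.37 (Ndufaf4) to 13.1 (Ndufaf8). The tissue-restricted isoforms Cox6a2 and Cox6b2 were lowest. Cox6a2, the heart and muscle form of subunit 6a, averaged 0.509 CPM per kb, against 200 CPM per kb for the common form Cox6a1. Cox6b2, the testis form of subunit 6b, averaged 0.785 CPM per kb, and the muscle form Cox7a1 5.03 CPM per kb. Within complex II the catalytic flavoprotein Sdha was highest per length (96.0 CPM per kb) and the membrane anchor Sdhd lowest (49.7 CPM per kb). Uqcrq was the lowest of complex III (21.3 CPM per kb), and Atp5g1, one of the genes for the c-ring subunit, the lowest of complex V (36.4 CPM per kb).

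**Figure D1:**
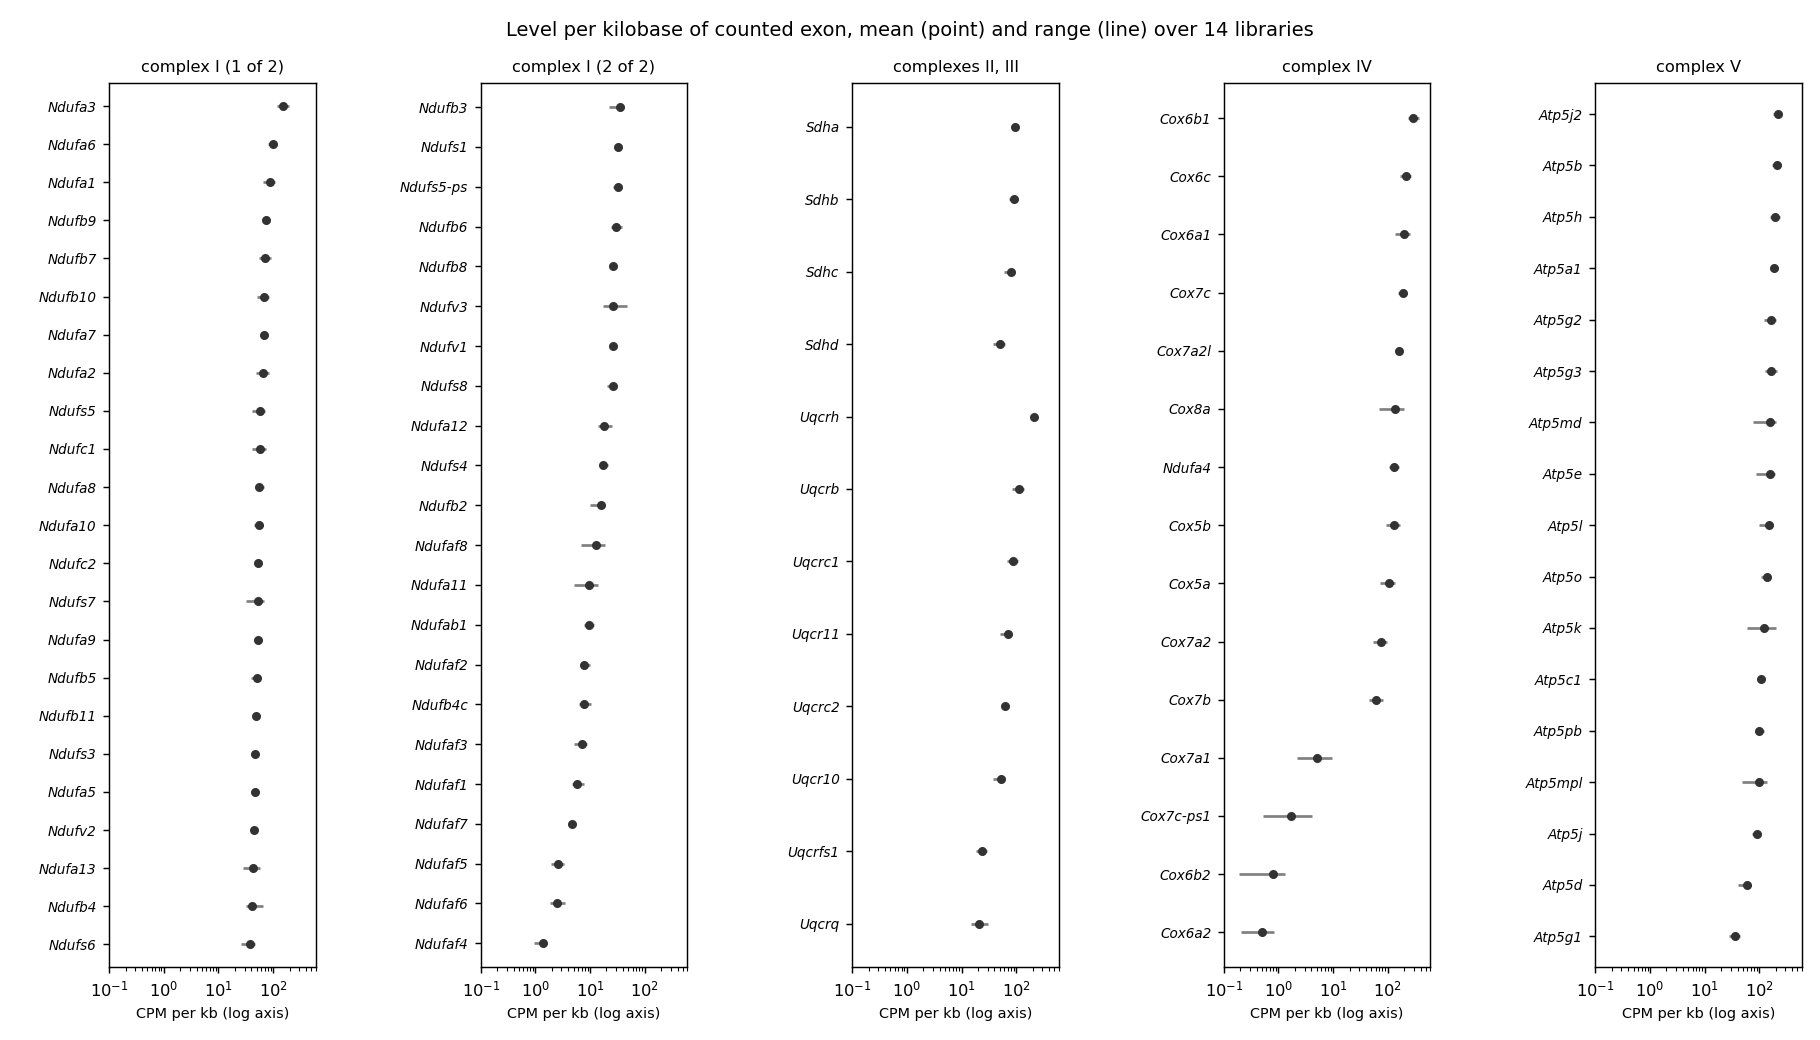
Level of 89 of the 90 genes in CPM per kb of counted exon (log axis), by complex and in descending order; points are means over all 14 libraries and lines run from the lowest to the highest library. Subunits lie mostly above 10 CPM per kb, up to 293 for Cox6b1, and most assembly factors and the tissue-restricted isoforms Cox6a2, Cox6b2 and Cox7a1 below 10 CPM per kb.

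In WT macrophages, the median log2 fold change with CM was positive in each of the 5 complexes. Of the 90 genes, 37 were higher in CM at an adjusted p below 0.05 (edgeR quasi-likelihood test, adjusted over all 13311 genes tested) and 1 was lower, where 19.3% of all genes tested were called higher and 18% lower. The increases were small, 1.12-fold for the smallest and 1.71-fold for the largest. The median log2 fold change over the 90 genes was 0.23, against -0.01 over all genes tested, and 86 of the 90 were positive. In bulk RNA, fewer cells of a type and less RNA per cell cannot be told apart.

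Read as levels per library, the median over the genes of log2 CPM minus the gene's own mean was 0.13, 0.11, 0.07 and 0.05 in the 4 WT CM libraries, against -0.13, -0.09, -0.15 and -0.15 in the 4 WT control libraries. The media did not overlap. Taken by complex, they overlapped for complex II only, at -0.06 to 0.15 in WT CM and -0.28 to -0.01 in WT control. The share of the 90 genes in all counts was 0.634 to 0.678% in WT CM and 0.566 to 0.620% in WT control. Single genes separated in the same way: for 32 of the 90, every WT CM library lay above every WT control library, where 17.6% of all genes did so, and for 1 every WT CM library lay below, where 16.2% of all genes did.

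Either pair of WT libraries gave a like count on its own. With WT libraries 1 and 2 alone in both media, 40 members were called higher and 2 lower, and with libraries 3 and 4 alone 46 higher and 0 lower, where 32.6% and 36.3% of all genes tested were called. The fit with the replicate number as a block called 63 higher and 2 lower, where 49.4% of all genes were called. Scaling by library totals alone, which lowered the median of all genes to -0.09, called 24 higher and 2 lower. In that fit 1957 of all 13311 genes tested were called higher and 3501 lower. Of the 38 calls, 26 were kept with any 1 of the 14 libraries left out.

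**Figure D2:**
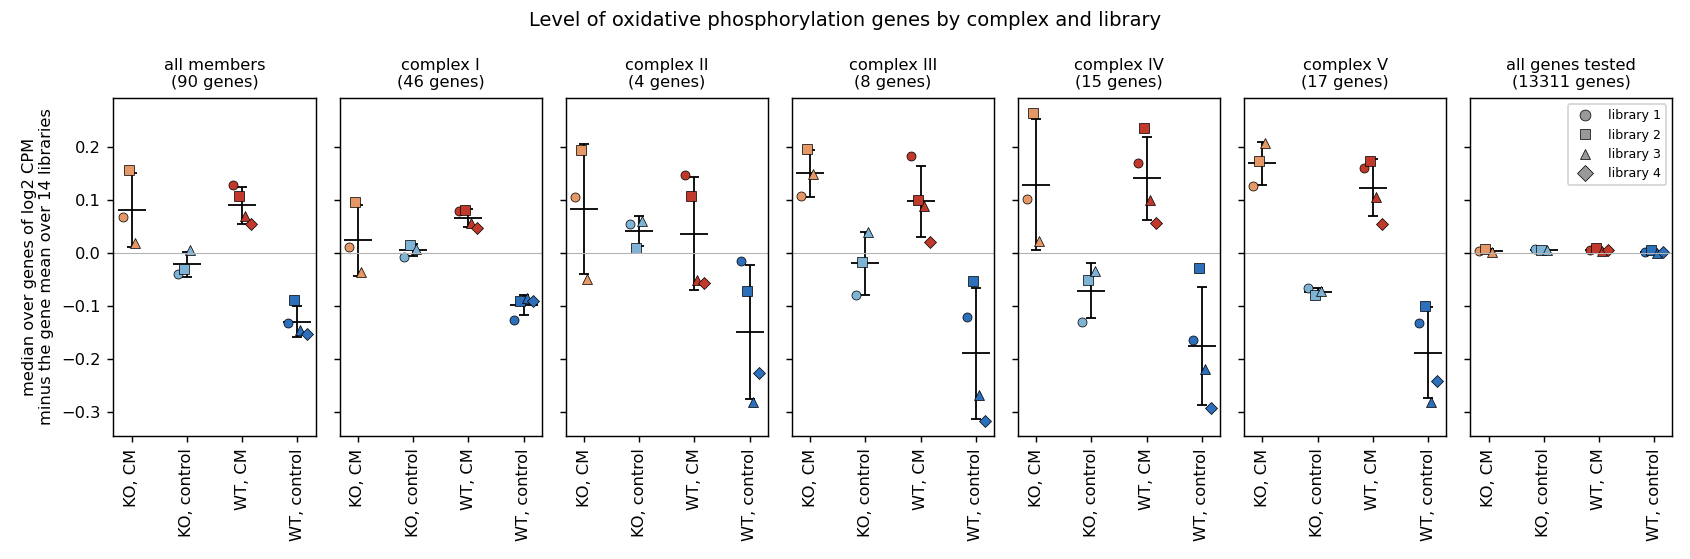
Median over the genes of each set of log2 CPM minus the gene's mean over the 14 libraries (y axis), for each library by group; marker shapes are library numbers, and bars are group means with SD. For all 90 genes the WT CM libraries lie between 0.05 and 0.13 and the WT control libraries between -0.15 and -0.09, while the median of all genes tested stays between 0.00 and 0.01.

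By complex, CM in WT was accompanied by 13 higher and 1 lower of 46 genes of complex I, 2 higher of 4 of complex II, 4 higher of 8 of complex III, 8 higher of 15 of complex IV and 10 higher of 17 of complex V. The median log2 fold change was 0.17 for complex I, 0.20 for complex II, 0.26 for complex III, 0.31 for complex IV and 0.32 for complex V. The 8 assembly factors of complex I had a median of 0.07, with 0 called higher and 1 lower.

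In complex I the clearest increase was that of Ndufc1, a small accessory subunit of the membrane arm, on chromosome 3 from 51405479 to 51408955 (GRCm38). It had 25.6, 28.2, 30.4 and 29.3 CPM in WT CM libraries, against 17.4, 18.5, 22.2 and 20.8 CPM in WT control libraries, a log2 fold change of 0.53 ± 0.08 (SE; edgeR adjusted p = 9.8e-05). The groups did not overlap. Ndufb6, another membrane arm subunit, was 0.41 ± 0.08 higher (edgeR adjusted p = 0.0010), with 39.0% of its annotated exonic bases under a gene on the other strand, whose reads could be counted with it. Of the core subunits that carry electrons, Ndufs1 was 0.17 ± 0.06 higher (edgeR adjusted p = 0.026), which was no longer called without WT CM library 1, without WT control library 3 or 4 (adjusted p of up to 0.10) and with WT libraries 1 and 2 alone, and Ndufs8 0.29 ± 0.08 higher (edgeR adjusted p = 0.0064). The Ndufs8 call was lost with WT libraries 1 and 2 alone (edgeR adjusted p = 0.066) and with the most-counted exon (edgeR adjusted p = 0.43). Ndufv1, the NADH-binding flavoprotein, had a log2 fold change of 0.06 ± 0.06 and was not called.

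The decrease was that of Ndufaf7, an assembly factor with methyltransferase activity, on chromosome 17 from 78937106 to 78948052. It had 10.0, 9.27, 10.2 and 10.1 CPM in WT CM libraries and 12.5, 11.9, 12 and 10.8 CPM in WT control libraries. Every CM library lay below every control library, and the log2 fold change was -0.25 ± 0.07 (edgeR adjusted p = 0.011). With WT libraries 3 and 4 alone it was -0.16 and not called (edgeR adjusted p = 0.23). With its most-counted exon alone it was -0.28 and not called (edgeR adjusted p = 0.18).

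In complex II, Sdha had 302, 293, 292 and 291 CPM in WT CM libraries and 258, 251, 248 and 245 CPM in WT control libraries. Its libraries were tightly grouped and did not overlap between media (log2 fold change 0.23 ± 0.05, edgeR adjusted p = 0.0020). Sdhd was also higher, by 0.36 ± 0.09 (edgeR adjusted p = 0.0048). The iron-sulfur subunit Sdhb was not called, with 110, 107, 91.0 and 90.6 CPM in WT CM and 120, 126, 98.0 and 101 CPM in WT control (-0.16 ± 0.08, edgeR adjusted p = 0.17). The 2 media overlapped for Sdhb, WT libraries 3 and 4 were the lower ones in each, and every CM library lay below the control library of its number. With the replicate block Sdhb was called lower in CM in WT (-0.15, edgeR adjusted p = 0.0035).

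In complex III the largest change was that of Uqcrq, a small subunit bound to cytochrome b, on chromosome 11 from 53427922 to 53430831. It had 45.4, 52.1, 41.0 and 41.2 CPM in WT CM libraries, against 26.6, 31.0, 26.3 and 28.2 CPM in WT control libraries. The lowest CM library was well above the highest control library, and the log2 fold change was 0.68 ± 0.09 (edgeR adjusted p = 2.9e-05). Uqcrb, a further small subunit, was 0.42 ± 0.08 higher (edgeR adjusted p = 0.00082), and Uqcrfs1, the Rieske iron-sulfur protein, 0.28 ± 0.07 higher (edgeR adjusted p = 0.0084). Uqcr11 was 0.39 ± 0.12 higher (edgeR adjusted p = 0.019). The core protein Uqcrc1 (0.06 ± 0.10) and the hinge protein Uqcrh (0.07 ± 0.07) were not called.

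In complex IV, Cox7b, a membrane subunit of the complex, is on chromosome X from 106015700 to 106022450. It had 76.8, 77.9, 71.0 and 73.2 CPM in WT CM libraries and 47.7, 54.5, 50.3 and 45.6 CPM in WT control libraries. The groups were widely apart (log2 fold change 0.59 ± 0.08, edgeR adjusted p = 2.0e-05). Cox5a, which binds on the matrix side of the catalytic core, was 0.49 ± 0.09 higher (edgeR adjusted p = 0.00043), and Cox6c 0.30 ± 0.07 higher (edgeR adjusted p = 0.0037). Cox8a was 0.70 ± 0.18 higher (edgeR adjusted p = 0.0068), but its libraries overlapped, with 95.1, 107, 71.7 and 65.1 CPM in WT CM and 57.5, 71.9, 41.3 and 38.3 CPM in WT control. In each medium WT libraries 3 and 4 of Cox8a were the lower ones, and the fold change was 0.64 in libraries 1 and 2 alone (edgeR adjusted p = 0.00018) and 0.78 in libraries 3 and 4 alone (edgeR adjusted p = 4.7e-06).

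In complex V the F1 subunits that form the catalytic head and its shaft had 4 of 5 members called higher. Atp5a1 (alpha) was 0.27 ± 0.05 higher, Atp5b (beta) 0.33 ± 0.06 higher and Atp5c1 (gamma) 0.22 ± 0.04 higher, each with an edgeR adjusted p of at most 0.00065. Atp5a1 had 508, 500, 471 and 461 CPM in WT CM libraries and 411, 426, 387 and 386 CPM in WT control libraries. None of these 3 genes overlapped between the media. With its most-counted exon alone Atp5c1 had 0.17 and was not called (edgeR adjusted p = 0.056). Atp5d (delta) was 0.32 ± 0.11 higher (edgeR adjusted p = 0.037) with libraries that overlapped, and Atp5e (epsilon) had 0.45 ± 0.17 and was not called (edgeR adjusted p = 0.057). Of the stalk that holds the head in place, Atp5o (the oligomycin sensitivity subunit) had 114, 119, 118 and 116 CPM in WT CM and 90.1, 94.3, 95.1 and 90 CPM in WT control (0.34 ± 0.05, edgeR adjusted p = 3.9e-05). Atp5j (coupling factor 6) was 0.41 ± 0.06 higher (edgeR adjusted p = 7.7e-05). For Atp5o, 35.6% of annotated exonic bases lie under a gene on the other strand. With its most-counted exon alone the fold change of Atp5o was 0.33 and not called (edgeR adjusted p = 0.21).

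**Figure D3:**
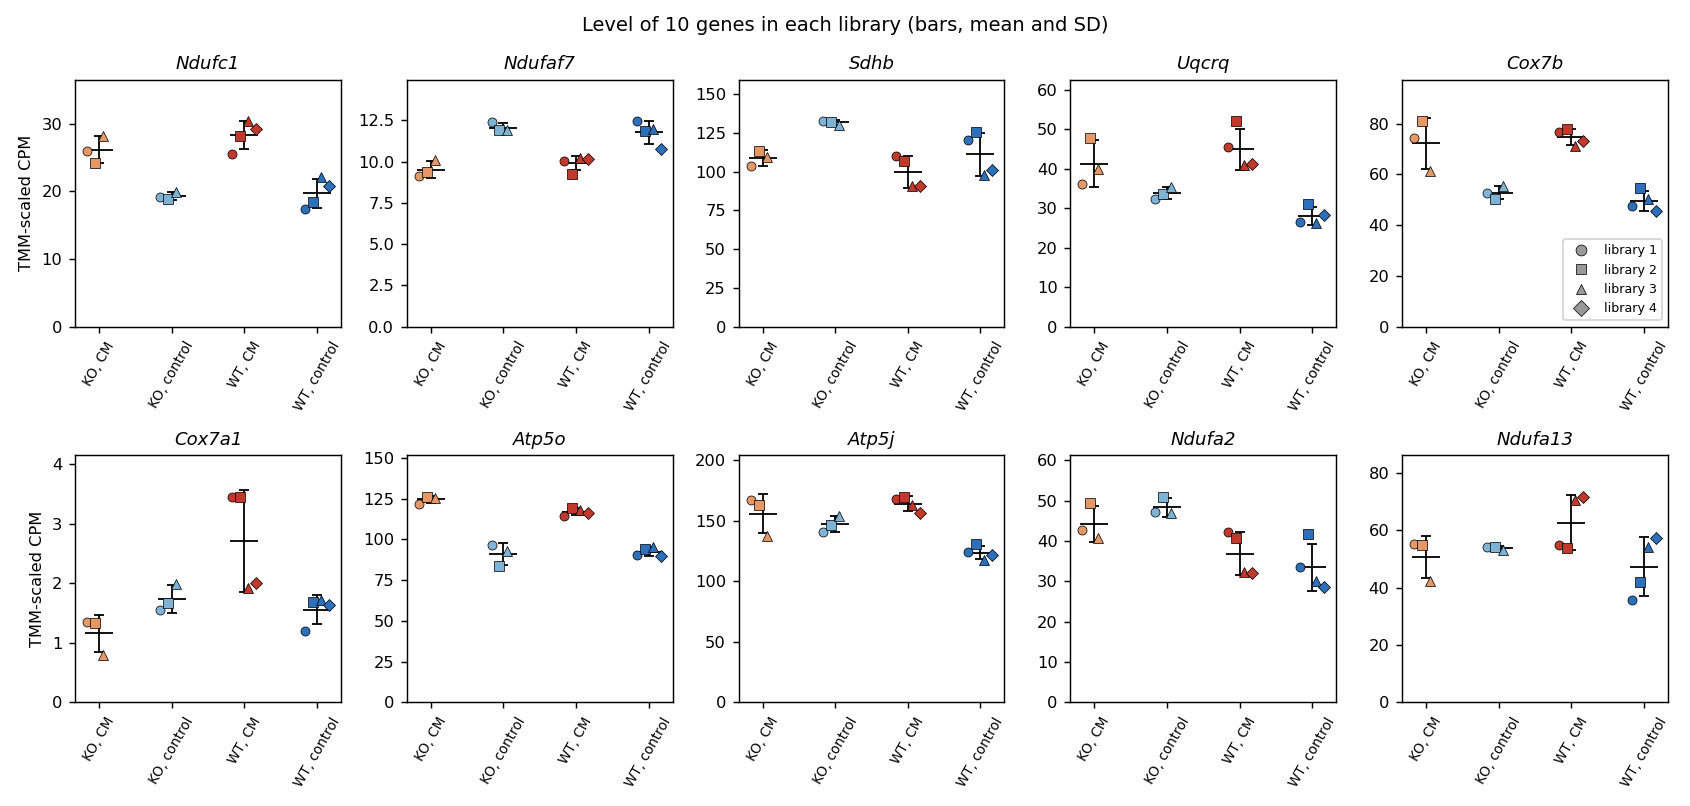
TMM-scaled CPM (y axis from 0) of 10 genes in each library by group; marker shapes are library numbers, and bars are group means with SD. Uqcrq, Cox7b, Atp5o and Ndufc1 lie higher in CM than in control medium in WT, Ndufaf7 lies lower in CM in both genotypes, and Cox7a1 lies highest in WT CM libraries 1 and 2 (3.46 and 3.45 CPM).

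The promoters of 4 genes that were higher in CM in WT are shown because they hold letter matches to motifs long linked with respiratory genes. Windows of 250 bases before to 50 after the start came from RefSeq (GRCm38.p6), 5′ to 3′ on the strand of the gene, for 74 of the 90 genes (79 windows). Capitals mark the matches. Uqcr11 (chr10:80406772-80407071, minus strand) holds the ETS motif CCGGAAGT and the NRF1 motif GCGCATGC on its other strand. Cox6a1 (chr5:115348909-115349208, minus strand) holds 2 overlapping NRF1 matches, on either strand. Ndufc1 (chr3:51408906-51409205, minus strand) and Atp5j2 (chr5:145191492-145191791, minus strand) hold the YY1 motif AAGATGGC just after the start.
Uqcr11: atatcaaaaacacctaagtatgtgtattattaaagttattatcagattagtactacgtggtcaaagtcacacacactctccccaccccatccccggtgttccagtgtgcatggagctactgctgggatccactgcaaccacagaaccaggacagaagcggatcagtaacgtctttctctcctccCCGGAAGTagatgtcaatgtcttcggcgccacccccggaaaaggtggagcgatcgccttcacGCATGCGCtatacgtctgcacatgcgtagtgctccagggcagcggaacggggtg
Cox6a1: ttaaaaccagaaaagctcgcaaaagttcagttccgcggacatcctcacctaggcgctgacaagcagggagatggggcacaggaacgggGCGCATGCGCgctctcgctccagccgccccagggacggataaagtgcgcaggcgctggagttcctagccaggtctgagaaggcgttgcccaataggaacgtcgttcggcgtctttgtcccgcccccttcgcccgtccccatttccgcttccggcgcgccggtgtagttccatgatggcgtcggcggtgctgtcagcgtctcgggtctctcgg
Ndufc1: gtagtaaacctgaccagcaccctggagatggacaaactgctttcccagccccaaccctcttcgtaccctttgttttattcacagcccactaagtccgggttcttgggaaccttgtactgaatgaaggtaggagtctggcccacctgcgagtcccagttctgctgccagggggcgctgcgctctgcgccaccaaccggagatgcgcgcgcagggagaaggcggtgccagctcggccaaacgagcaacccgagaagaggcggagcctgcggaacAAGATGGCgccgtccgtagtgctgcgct
Atp5j2: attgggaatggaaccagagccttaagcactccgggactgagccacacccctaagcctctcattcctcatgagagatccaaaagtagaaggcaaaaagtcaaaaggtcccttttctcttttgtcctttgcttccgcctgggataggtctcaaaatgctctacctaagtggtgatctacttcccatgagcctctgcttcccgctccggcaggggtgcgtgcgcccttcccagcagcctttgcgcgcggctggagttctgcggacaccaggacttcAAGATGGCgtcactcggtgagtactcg
Both strands of all windows were searched. NRF1 letters were in 15.2% of the genes' windows, 5.04% of windows of all genes tested and 2.71% of all windows. YY1 letters were in 13.9%, 4.36% and 2.75%, and the ERR motif CAAGGTCA in 5.06%, 1.13% and 1.56%. ETS letters were in 6.33% of the genes' windows and 7.94% of those of genes tested, the E-box CACGTG in 8.86% and 10.0%, and the CRE motif TGACGTCA in 5.06% and 2.98%. By response, NRF1 letters were in 2 of 34 windows of genes called higher in CM in WT and in 10 of 44 windows of genes not called, and YY1 letters in 5 of 34 and 6 of 44, given as counts with no test.

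In KO macrophages CM was accompanied by 18 higher and 2 lower of the 90 genes, where 20% of all genes tested were called higher and 18.2% lower. The members' count of increases was thus close to the background. The median log2 fold change was 0.09 over the 90 genes and -0.01 over all genes tested, and 58 of the 90 were positive. With library totals alone, which moved the median of all genes tested by -0.11 to -0.12, the split was 10 higher and 10 lower and the members' median -0.02, still 0.10 above the median of all genes. In that fit 1941 of all 13311 genes tested were called higher and 3624 lower. The 18 increases lay between 1.16-fold and 1.48-fold.

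The median level over the genes was 0.07, 0.16 and 0.02 in KO CM libraries, against -0.04, -0.03 and 0.01 in KO control libraries. The media did not overlap, but KO CM library 3 came close to the controls. For 31 genes every KO CM library lay above every KO control library, where 27.5% of all genes tested did so, and for 7 every one lay below, where 27.1% did. The complexes differed in their counts: 8 higher and 1 lower of 46 in complex I (median -0.02), 0 higher and 1 lower of 4 in complex II (0.09), 2 higher of 8 in complex III (0.17), 3 higher of 15 in complex IV (0.08) and 5 higher of 17 in complex V (0.20).

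Complex V held the clearest change in KO. Atp5o had 122, 126 and 125 CPM in KO CM libraries, against 96.4, 83.8 and 92.7 CPM in KO control libraries. The groups were far apart, and the log2 fold change was 0.45 ± 0.06 (edgeR adjusted p = 1.0e-05). With its most-counted exon alone the fold change was 0.53 and not called (edgeR adjusted p = 0.071). Atp5a1 was 0.33 ± 0.06 higher, Atp5b 0.36 ± 0.07 higher and Atp5c1 0.21 ± 0.04 higher, each with an edgeR adjusted p of at most 0.0016. Atp5j, by contrast, had 167, 163 and 137 CPM in KO CM and 141, 147 and 154 CPM in KO control, overlapped and was not called (0.08 ± 0.07, edgeR adjusted p = 0.39). The Atp5c1 call in KO was lost with its most-counted exon alone (0.08, edgeR adjusted p = 0.43). It was also lost with library totals alone (0.10, edgeR adjusted p = 0.083).

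Elsewhere in KO, Ndufc1 had 26.0, 24.2 and 28.3 CPM in CM and 19.1, 18.9 and 19.9 CPM in control medium, without overlap (0.44 ± 0.10, edgeR adjusted p = 0.0018). Ndufab1, the mitochondrial acyl carrier protein, was 0.36 ± 0.09 higher (edgeR adjusted p = 0.0030) and Ndufs1 0.25 ± 0.06 higher (edgeR adjusted p = 0.0053). Neither was called with its most-counted exon alone (edgeR adjusted p = 0.12 for Ndufab1 and 0.15 for Ndufs1). In complex IV, Cox7b was 0.45 ± 0.09 higher (edgeR adjusted p = 0.00096), Cox6c 0.34 ± 0.08 higher (edgeR adjusted p = 0.0037) and Cox5a 0.41 ± 0.10 higher (edgeR adjusted p = 0.0053). In complex III, Uqcrb (0.29 ± 0.10, edgeR adjusted p = 0.023) and Uqcrq (0.29 ± 0.11, edgeR adjusted p = 0.046) were called. The KO media overlapped for Uqcrb, and its call was lost without KO CM or KO control library 1 or 2, with an adjusted p of up to 0.11. The Uqcrq call was lost without any KO control library, KO CM library 2 or 3, WT CM library 1, or WT control library 1 or 4, with an adjusted p of up to 0.24.

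The decreases in KO were those of Ndufaf7 and Sdhb. Ndufaf7 had 9.11, 9.36 and 10.1 CPM in KO CM and 12.4, 11.9 and 11.9 CPM in KO control, below in every library (-0.34 ± 0.08, edgeR adjusted p = 0.0036). With its most-counted exon alone it was -0.27 and not called (edgeR adjusted p = 0.30). Sdhb, on chromosome 4 from 140961271 to 140979198, had 104, 114 and 109 CPM in KO CM and 133, 132 and 130 CPM in KO control (-0.28 ± 0.10, edgeR adjusted p = 0.036). The groups did not overlap for Sdhb, yet its call was lost without any 1 of the 6 KO libraries, with an adjusted p of up to 0.12.

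**Figure D4:**
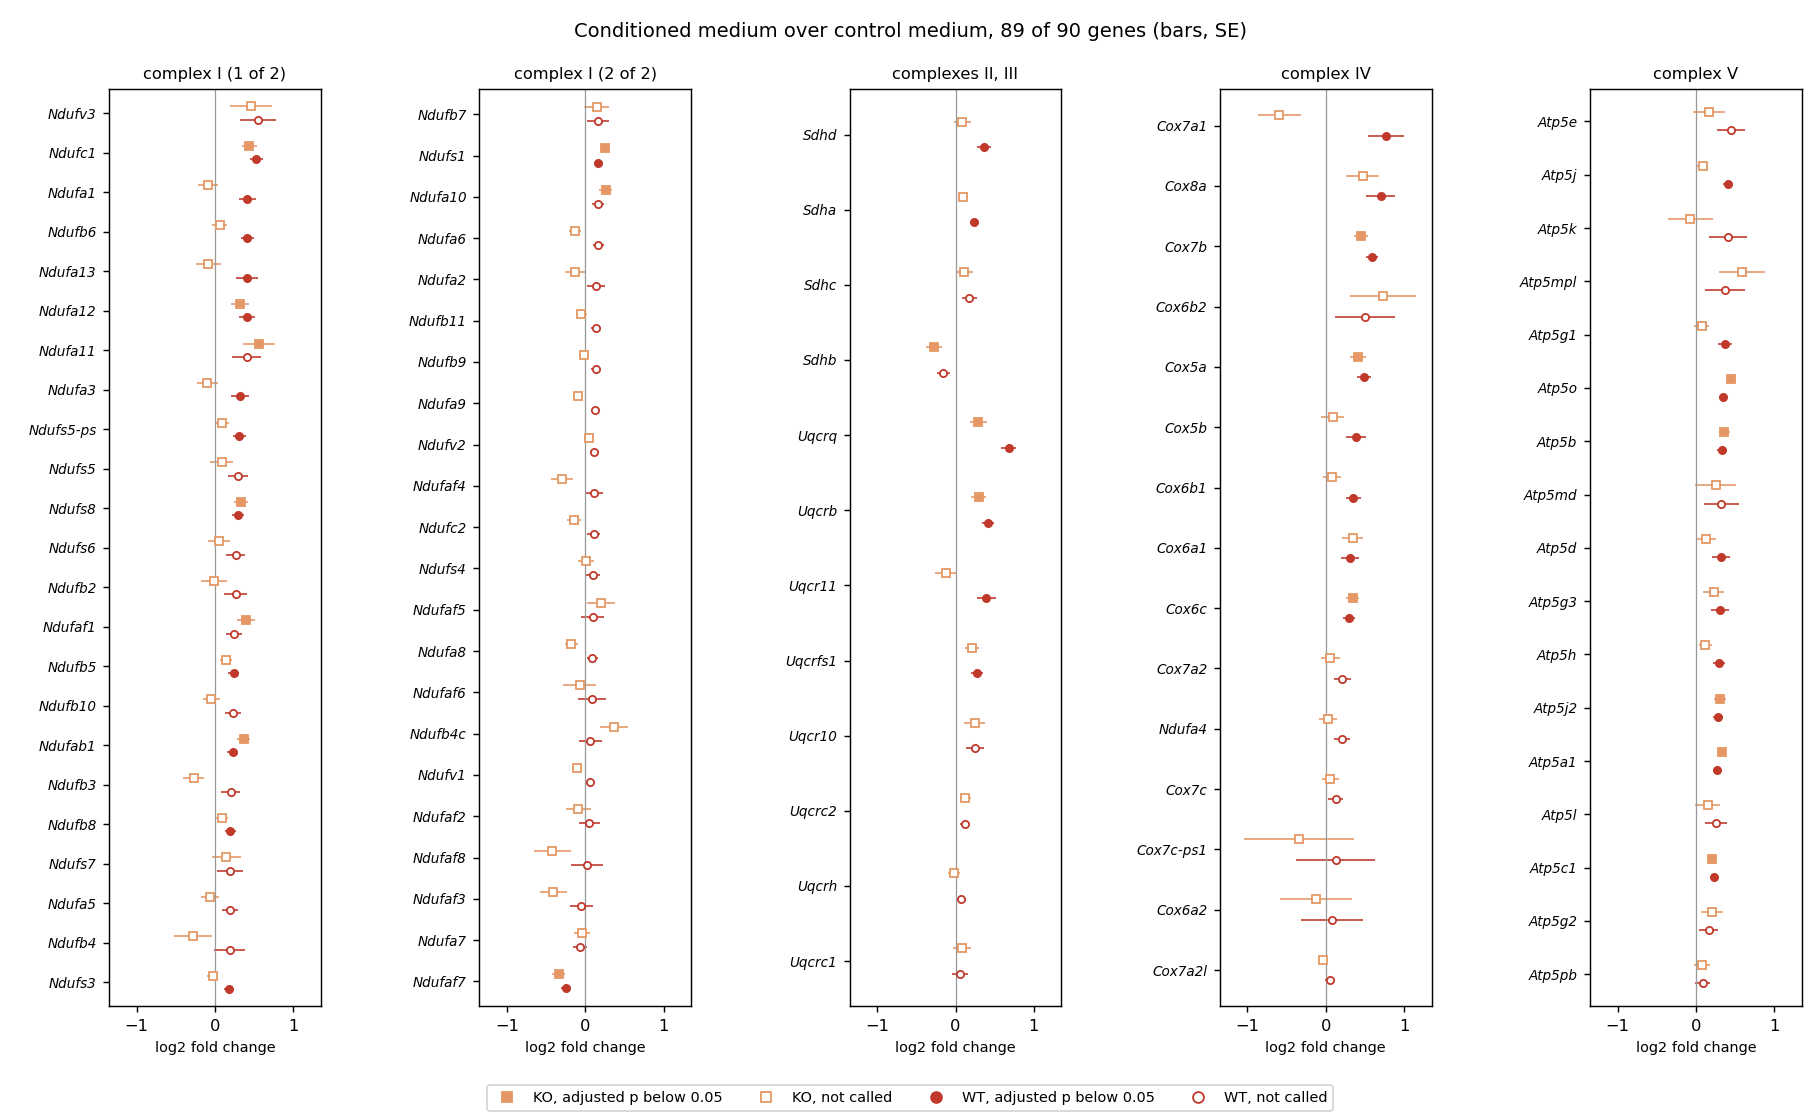
Log2 fold change of CM over control medium (x axis) with its SE for 89 of the 90 genes by complex, KO as squares above WT as circles; filled markers have an edgeR adjusted p below 0.05. In KO 18 genes are filled right of 0 and 2 left of it, and in WT 37 right and 1 left, with most circles right of 0.

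The CM comparisons of the 2 genotypes share no library. Of the 90 genes, 15 were called higher in CM in both genotypes, which is 83.3% of those called in KO and 40.5% of those called in WT. Over all genes tested, 20% were called higher in KO and 19.3% in WT. The overlap of these was not counted, so whether the members' overlap is particular to them was not tested. The 15 include Ndufc1, Ndufs1, Ndufs8, Ndufab1, Uqcrb, Uqcrq, Cox5a, Cox6c, Cox7b, Atp5a1, Atp5b, Atp5c1, Atp5j2 and Atp5o. Ndufaf7 was called lower in both. For the 22 genes called higher in WT and not called in KO, the difference between the responses was itself not called for any, the smallest edgeR adjusted p being 0.33.

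The difference between the responses, the interaction, was taken as the CM effect in KO minus that in WT. It was called for 0 of the 90 genes in either direction (0% of all genes tested were called higher and 0% lower). At an unadjusted p below 0.05 there were 15 genes, all negative, or 16.7% of the 90, against 1050 of all genes tested, or 7.89%. The median was -0.13 over the 90 genes and 0.01 over all genes tested, and 70 of the 90 were negative. DESeq2 called 1 member and limma-voom with quality weights called 0, and over all genes they called 84 and 27. By complex the median was -0.16 for complex I, -0.13 for complex II, -0.08 for complex III, -0.15 for complex IV and -0.07 for complex V. On simulated counts, the test recovered 51% of 1.5-fold interactions and 1% of 1.2-fold ones. These counts lack the split of the WT libraries, so recovery in the real data may differ.

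The smallest unadjusted p-values of the interaction belonged to Cox7a1, Atp5j and Ndufa1. Cox7a1, on chromosome 7 from 30184171 to 30186030, was 0.77 ± 0.23 higher in CM in WT (edgeR adjusted p = 0.014), the largest of the 90 fold changes there, and had -0.59 ± 0.28 in KO (not called). It had 1.34, 1.34 and 0.797 CPM in KO CM, 1.55, 1.67 and 1.99 CPM in KO control, 3.46, 3.45, 1.93 and 2.00 CPM in WT CM and 1.19, 1.68, 1.71 and 1.64 CPM in WT control. The levels were low throughout, WT CM libraries 1 and 2 were the high ones, and the KO media did not overlap, with CM below. The interaction was -1.36 ± 0.36 (unadjusted p = 0.0018 and adjusted p = 0.33 in edgeR, adjusted p = 0.045 in DESeq2). The WT call rested on libraries 1 and 2: the fold change was 1.25 in them alone (edgeR adjusted p = 0.0018) and 0.23 in libraries 3 and 4 alone (edgeR adjusted p = 0.49), and leaving out either WT CM library 1 or 2 ended the call.

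For Atp5j the interaction was -0.32 ± 0.10 (edgeR adjusted p = 0.37), the CM effect being 0.08 in KO and 0.41 in WT. Ndufa1, a small subunit needed for building the membrane arm, had -0.50 ± 0.17 (edgeR adjusted p = 0.43), with 43.9, 44.7 and 33.0 CPM in KO CM, 41.5, 45.8 and 42.1 CPM in KO control, 52.0, 43.8, 53.0 and 54.3 CPM in WT CM and 31.9, 35.5, 42.5 and 42.5 CPM in WT control. The WT media did not overlap for Ndufa1, and the KO media did. With the replicate block the interaction was called for Ndufa1, Ndufa13 and Uqcr11, all negative, and for 1.54% of all genes tested. With WT libraries 3 and 4 as a term it was called for Atp5j and Ndufa13 and for 1.23% of all genes, and with libraries 3 and 4 as the only WT libraries for Ndufb4 and for 0.4% of all genes, with these members again negative.

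**Figure D5:**
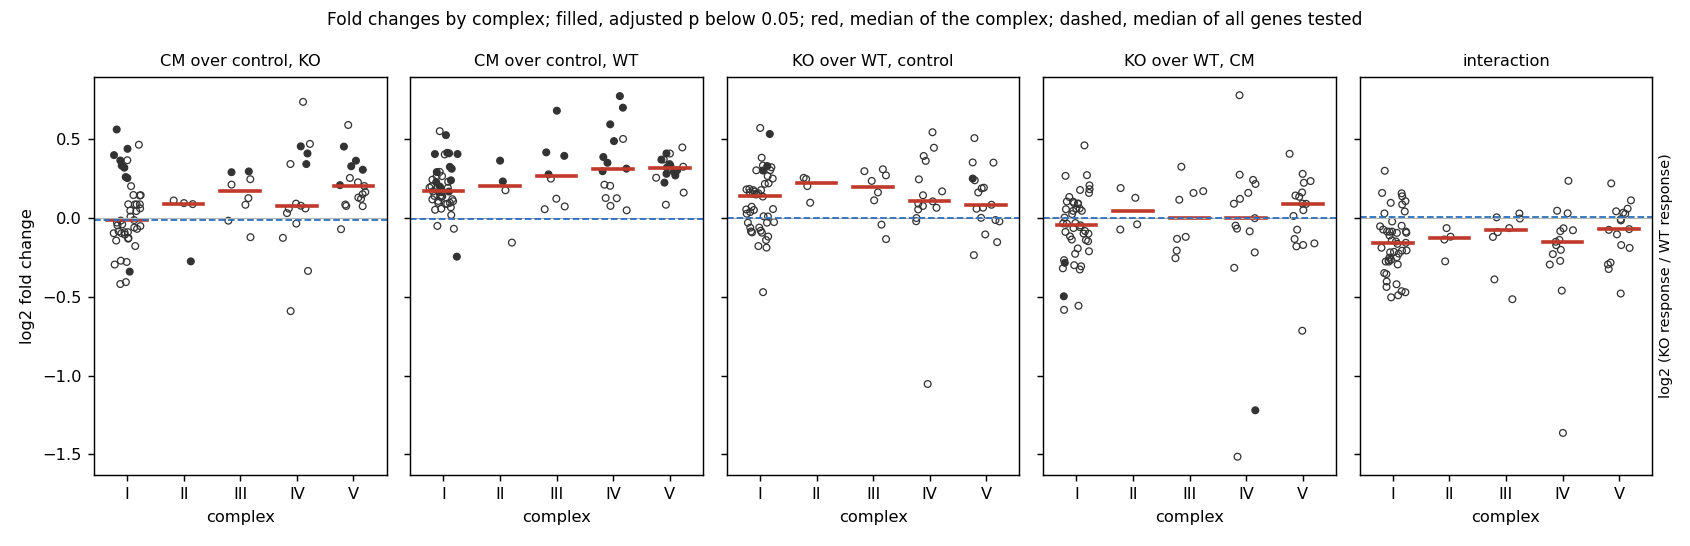
Log2 fold change of each gene (points, spread sideways for visibility) by complex for the 4 comparisons and the interaction; filled points have an edgeR adjusted p below 0.05, red bars are medians of the complex and the dashed line is the median of all genes tested. All 5 medians lie above the dashed line for CM in WT and below it for the interaction.

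In control medium, 4 of the 90 genes were higher in KO than in WT and 0 lower, where 2.82% of all genes tested were called higher and 2.5% lower. The median log2 fold change was 0.15 over the 90 genes and 0.00 over all genes tested. For 18 genes every KO control library lay above every WT control library, where 11.1% of all genes did so, and for 0 every one lay below, where 10.7% did. Of the 4 calls 3 were in complex I. Ndufa2, an accessory subunit of the NADH-oxidising arm, had 47.3, 51.0 and 46.8 CPM in KO control libraries and 33.5, 41.7, 30.1 and 28.7 CPM in WT control libraries (0.53 ± 0.13, edgeR adjusted p = 0.027). The groups did not overlap, and WT libraries 3 and 4 were lowest.

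Ndufa8, an accessory subunit on the intermembrane side, had 49.5, 53.6 and 46.5 CPM in KO control and 38.5, 41.6, 38.9 and 39.7 CPM in WT control (0.33 ± 0.08, edgeR adjusted p = 0.024). Ndufb5, of the membrane arm, was 0.30 ± 0.07 higher (edgeR adjusted p = 0.029), and Atp5j 0.25 ± 0.07 higher (edgeR adjusted p = 0.044). All 4 calls depended on single libraries, and Atp5j kept its call in 3 of 14 cases with 1 library left out. The largest fold change of the 90 was that of the assembly factor Ndufaf8, which was not called (0.57 ± 0.22). Without WT control library 3 or 4, or KO control library 1 or 2, 0 members were called, with 15 to 17 at an unadjusted p below 0.05, without KO control library 3 there were 2, and without WT control library 2 there were 13. Of all genes tested, 224 to 330 were called in the fits with 0 members. Without KO control library 3 it was 244, and without WT control library 2 it was 1769 of 13305. Against WT libraries 1 and 2 alone 2 members were called higher and 0 lower, and against libraries 3 and 4 alone 40 higher and 8 lower, where 3.85% and 38.9% of all genes tested were called. DESeq2 called 7 members and 1501 of 12536 genes, and limma-voom 34 members higher and 4 lower and 35.7% of all genes.

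In CM, 0 of the 90 genes were higher in KO than in WT and 3 lower, where 3.1% of all genes tested were called higher and 1.49% lower. The median was -0.02 over the 90 genes and 0.00 over all genes tested. For 8 genes every KO CM library lay above every WT CM library, where 11.3% of all genes did so, and for 7 every one lay below, where 9.59% did. Cox7a1 was -1.22 ± 0.26 in KO relative to WT (edgeR adjusted p = 0.016), without overlap of the libraries given above, and its call was lost without KO CM library 3 (edgeR adjusted p = 0.10). Ndufaf4, an assembly factor, had 3.83, 4.59 and 3.49 CPM in KO CM and 5.11, 5.86, 5.88 and 5.51 CPM in WT CM, below in every library (-0.50 ± 0.13, edgeR adjusted p = 0.041).

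Ndufa6, an accessory subunit that binds the acyl carrier protein, had 49.2, 54.5 and 45.4 CPM in KO CM and 55.3, 63.9, 62.4 and 60.4 CPM in WT CM, also below in every library (-0.28 ± 0.08, edgeR adjusted p = 0.046). When the WT CM side was limited to libraries 1 and 2, 0 members were higher and 1, Cox7a1, lower (-1.58, edgeR adjusted p = 0.0025). Limited to libraries 3 and 4, 28 were higher and 21 lower. Of all genes tested 3.58% were called against the first pair of WT libraries and 35.5% against the second pair. Without KO CM library 3, 0 members were called, with 10 at an unadjusted p below 0.05, and without WT CM library 3 or 4, KO CM library 1, or KO control library 1 or 2, 1 was. Of all genes tested, 217 were called without KO CM library 3, and 259 to 477 in the fits with 1 member called. Since the KO comparisons changed so much with the choice of WT libraries, KO and the difference between WT libraries cannot be told apart for members called against libraries 3 and 4 alone.

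The gap between WT libraries showed in single members. The mean of libraries 3 and 4 was at least 1.5 times that of libraries 1 and 2 in both media for 3 genes, Ndufv3, Cox7c-ps1 and Atp5k, and lower by that factor in both media for 2, Atp5md and Atp5mpl, while 74 of the 90 stayed within 1.5-fold in both. Atp5mpl, a small membrane subunit of the ATP synthase, had 110, 112 and 102 CPM in KO CM, 66.0, 66.4 and 83.3 CPM in KO control, 105, 107, 55.2 and 59.5 CPM in WT CM and 80.8, 89.0, 39.9 and 43.6 CPM in WT control. CM was higher than control medium in KO without overlap (0.59 ± 0.30, not called), and the WT media overlapped (0.37 ± 0.26, not called).

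Where a subunit has a common and a tissue-restricted form, the calls with CM in WT included the common forms Cox6a1 and Cox6b1, but for subunit 7a the muscle form Cox7a1. Cox6a1 was 0.31 ± 0.12 higher (edgeR adjusted p = 0.046), a call lost without any 1 of the KO libraries, WT CM library 1 or 2, or WT control library 3 or 4, and Cox6b1 0.35 ± 0.10 higher (edgeR adjusted p = 0.010). Cox6a2 (0.08 ± 0.40) and Cox6b2 (0.50 ± 0.38) had under 2 CPM in each library and were not called. Cox6b2 had the largest fold change of the 90 with CM in KO (0.74 ± 0.42, not called), with 1.32, 1.45 and 1.36 CPM in KO CM and 0.546, 0.649 and 1.31 CPM in KO control. Cox7a2, the common partner of Cox7a1, had 0.21 ± 0.11 and was not called (edgeR adjusted p = 0.15), and Cox7a2l, which joins complexes III and IV in supercomplexes, 0.05 ± 0.05, with 163 to 200 CPM over all libraries. Of the genes for the c-ring, which encode the same mature protein, Atp5g1 was 0.37 ± 0.08 higher in CM in WT (edgeR adjusted p = 0.0024), Atp5g3 0.30 ± 0.11 higher (edgeR adjusted p = 0.048, lost in 11 of 14 cases with 1 library left out), and Atp5g2 had 0.16 ± 0.12. Ndufa4, with 0.20 ± 0.10, was not called. In KO none of these was called for CM, with Cox6a1 at 0.34 ± 0.13 (edgeR adjusted p = 0.056).

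Several members share sequence with other genes. Of 85 matched to GENCODE coding sequences, 23 had a copy elsewhere of at least 95% identity over 150 bp or more, 21 of them a pseudogene, so reads could be split between copies. Of the 62 without such a copy 24 were called higher in CM in WT, and of the 23 with one 12 were. The entry Ndufs5-ps, a copy of Ndufs5, had 29.9, 37.9 and 32.2 CPM in KO CM, 31.6, 32.5 and 30.1 CPM in KO control, 37.0, 37.2, 32.8 and 32.4 CPM in WT CM and 30.5, 28.1, 27.9 and 25.9 CPM in WT control. Reads could be shared between it and Ndufs5, which had 0.29 ± 0.13 with CM in WT and was not called (edgeR adjusted p = 0.093), so the call of Ndufs5-ps (0.31 ± 0.08, edgeR adjusted p = 0.0054) is uncertain. The remaining copies, Ndufb4c and Cox7c-ps1, were not called in any comparison. Ndufb4c had the largest positive interaction of the 90 (0.30 ± 0.23). Cox7c-ps1 had the lowest fold change of KO over WT in both media (-1.05 ± 0.60 in control medium and -1.51 ± 0.62 in CM), with 0.191 to 1.55 CPM over all libraries and its 4 highest values in WT libraries 3 and 4.

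Genes that feed or serve the chain were listed beside it. With CM, 20% of all genes tested were called higher and 18.2% lower in KO, and 19.3% higher and 18% lower in WT. Several of the list counts that follow lie near or under these shares. Cycs, the cytochrome c that shuttles between complexes III and IV, was 0.53 ± 0.08 higher in CM in WT (edgeR adjusted p = 6.5e-05) and 0.43 ± 0.09 higher in KO (edgeR adjusted p = 0.0018), while Cox4i1 (0.26 ± 0.14 in WT) and Cyc1 (0.18 ± 0.11 in WT) were not called in either genotype. Of 20 genes of the citric acid cycle and pyruvate entry, 7 were higher and 0 lower with CM in each genotype. They included Cs, the citrate synthase (0.53 ± 0.07 in KO and 0.39 ± 0.06 in WT), Mdh2, the malate dehydrogenase (0.43 ± 0.06 in KO and 0.38 ± 0.05 in WT), and Pdha1, of pyruvate dehydrogenase (0.48 ± 0.07 in KO and 0.54 ± 0.06 in WT). Pcx, the pyruvate carboxylase, was higher in KO than in WT in control medium (0.81 ± 0.12, edgeR adjusted p = 0.0014) and in CM (0.59 ± 0.11, edgeR adjusted p = 0.0094).

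Of 25 genes of protein import, 4 were higher and 1 lower with CM in KO, and 10 higher and 0 lower in WT, led by Timm10b (0.63 ± 0.08 in KO and 0.61 ± 0.07 in WT). Of 27 complex IV assembly genes, 4 were higher and 1 lower in KO and 8 higher and 0 lower in WT. Assembly genes of complex I outside the symbol rule were 1 higher of 9 in KO and 0 in WT, and of the ATP synthase 0 of 6 in either. Of 12 coenzyme Q synthesis genes, 1 was higher and 1 lower in KO and 3 higher and 1 lower in WT, with Coq8a lower in both (-0.54 ± 0.10 in KO and -0.62 ± 0.09 in WT). Of 4 complex II assembly genes 1 was higher in KO and 2 in WT, and of 6 complex III assembly genes 1 in KO and 0 in WT.

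Of 15 genes of fatty acid oxidation 1 was higher and 4 lower with CM in KO, and 1 higher and 3 lower in WT. Cpt1a, which admits long-chain fatty acids to mitochondria, was -0.88 ± 0.05 in KO (edgeR adjusted p = 3.9e-09) and -0.89 ± 0.05 in WT (edgeR adjusted p = 5.1e-10). Of 7 carriers 3 were higher and 1 lower in each genotype, with Slc25a5, the ADP/ATP carrier, higher (0.59 ± 0.11 in KO and 0.58 ± 0.10 in WT) and the carrier Ucp2 lower (-0.71 ± 0.07 in KO and -0.60 ± 0.06 in WT). Of 17 regulators of mitochondrial genes 1 was higher and 1 lower in each genotype. These were Ppargc1b, a coactivator of respiratory genes (1.18 ± 0.15 in KO and 0.93 ± 0.13 in WT), and Polg, the mitochondrial DNA polymerase (-0.84 ± 0.11 in KO and -0.66 ± 0.09 in WT).

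Markers of dividing cells and of monocytes moved with the medium as well. All 6 markers of dividing cells were higher with CM in both genotypes, and their sum was 439 to 505 CPM in KO CM, 129 to 151 CPM in KO control, 284 to 345 CPM in WT CM and 98.3 to 126 CPM in WT control. Relative to WT, 3 of the 6 were higher in KO in control medium and 4 in CM, where 2.82% and 3.1% of all genes tested were. Of 4 monocyte markers 3 were higher with CM in each genotype, with sums of 248 to 286 CPM in KO CM, 46.7 to 53.4 CPM in KO control, 188 to 249.4 CPM in WT CM and 40.2 to 52.0 CPM in WT control. Of 3 megakaryocyte markers 2 had enough counts to be tested, and 1 was called higher with CM in each genotype. Their sum was 91.9 to 132.7 CPM in KO CM, 26.1 to 32.4 CPM in KO control, 50.7 to 81.5 CPM in WT CM and 18.9 to 23.6 CPM in WT control. In KO control 1 of the 3 had no counts. The neutrophil, dendritic, mast cell, stroma and hepatocyte marker sums were at most 4.03 CPM in any library. The part of these cells in the levels of the respiratory genes was not tested.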

How the data were processed

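Gene expression was measured by RNA sequencing in 14 libraries of 4 groups. Per the labels' protocols, RNA was extracted with RNeasy, libraries were made with the QIAseq Stranded mRNA Select kit, and paired reads of 150 bp came from a NovaSeq. The submitters' processing notes name HISAT2 and the mm10 build. The counting tool, annotation and strand setting are not given in the sources used here. The deposited table holds read counts per exon, one row per transcript and exon, with 427386 rows. Of these, 196941 repeat another row in gene, length and all counts. The 230445 distinct rows were summed per gene. Overlapping exon versions that differ in length remain, so shared bases and reads can be counted more than once. Ndufs5-ps has 984 counted bases, though its gene spans only 42955580 to 42956079 on chromosome 16. CPM, CPM per kb and the order per kb can carry this.

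All genes were fitted with edgeR 4.0.16 (TMM scaling, minimum count 10, quasi-likelihood F test, 13311 genes, Benjamini-Hochberg adjustment) in 1 model with 4 groups, and a call is an adjusted p below 0.05. Levels are TMM-scaled CPM, and CPM per kb of summed exon length. Alternatives used DESeq2 1.42.0 and limma 3.58.1, other scalings, filters, counting and samples, and each library left out in turn. The test was checked on simulated counts, where it recovered 92% of 1.5-fold and 23% of 1.2-fold changes with CM in WT among 13204 genes, and 87% and 13% for KO in control medium among 13205. The main model has no replicate block, and a fit with the replicate number as a block was an alternative. In WT the deviations of each CM library from its group correlated with those of the control library of its number (r of 0.331, 0.354, 0.47 and 0.462). Unlike-numbered libraries within 1 and 2 or within 3 and 4 correlated about as much (r of 0.349, 0.31, 0.374 and 0.462). Between these 2 sets r was -0.353 to -0.425. The correlations thus follow the split of libraries 1 and 2 from 3 and 4, and do not show pairing by number. KO libraries of the same number did not pair (r of -0.00, -0.04 and 0.05). Library totals of 40.2 to 85.8 M counts set the counting precision, and the lowest member had 279 counts over all libraries.

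The genes and lists were chosen with earlier results of these data known. Named genes were, per complex and comparison, up to 3 called with the smallest p in each direction, the core catalytic subunits, the isoform families, the extremes of fold change and of level per length, and the 3 smallest p-values of the interaction. From each neighbouring list up to 4 genes could be named. Of the 90 genes, 1 is counted in all sums, medians and counts but its own values are not reported here.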

Additional observations from a re-analysis of the deposited data

Results flagged for a closer look

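Among 106 groups of 4 libraries examined (each named gene and each complex in WT CM and WT control), 3 had a library far from the others by Dixon's test, where chance flags about 1 in 20 groups. Atp5j2 had 120.4 CPM in WT CM library 2, above 112.8 to 113.7 CPM in the other WT CM libraries. Cox7a1 had 1.194 CPM in WT control library 1, below 1.642 to 1.713 CPM in the others. The median level of complex I was -0.1261 in WT control library 1, below -0.0911 to -0.086 in the others, on the log2 scale relative to each gene's mean. Groups of 3 KO libraries were not examined.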

How the results depend on the processing

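No direction of a named gene's called value reversed under any alternative. Among named genes, 81 values in CM in WT, 36 in CM in KO, 44 in KO in control medium and 34 in KO in CM lost their call, against 1256, 1143, 1216 and 1250 that kept their side of the threshold, and 20, 37, 50 and 26 gained a call, as did 3 of the interaction. The members called with CM in WT numbered 38, with 66 when WT libraries 3 and 4 were a term, 23 at an adjusted p below 0.01, and 32 to 39 with 1 library left out. Of all genes tested, 37.3% were called in the main fit and 49.3% with that term. The share of all genes at an adjusted p below 0.01 was not counted for any comparison. With CM in KO there were 20, with 34 when the compared groups alone were fitted, 13 at an adjusted p below 0.01, and 14 to 22 with 1 library left out. The share of all genes called was 38.1% in the main fit and 46.9% with the compared groups alone. For KO in control medium there were 4, with 7 by library totals, 7 by DESeq2, 38 by limma-voom, 1 with the compared groups alone, 1 with the most-counted exon, 2 against WT libraries 1 and 2, 48 against WT libraries 3 and 4, 0 at an adjusted p below 0.01, and 0 to 13 with 1 library left out. There 5.32% of all genes were called in the main fit, 5.91% by library totals, 12% by DESeq2 and 35.7% by limma-voom. The compared groups alone gave 2.17% and the most-counted exon 3.07%. Against WT libraries 1 and 2 it was 3.85%, and against libraries 3 and 4 38.9%. For KO in CM there were 3, with 1 without a filter, 10 by limma-voom, 0 with the compared groups alone, 1 with the most-counted exon, 1 against WT libraries 1 and 2, 49 against WT libraries 3 and 4, 0 at an adjusted p below 0.01, and 0 to 3 with 1 library left out. Here 4.59% of all genes were called in the main fit, 2.73% without a filter and 13.5% by limma-voom. The compared groups alone gave 3.31% and the most-counted exon 3.44%. Against WT libraries 1 and 2 it was 3.58%, and against libraries 3 and 4 35.5%. The interaction had 0, with 1 by DESeq2, 1 with WT libraries 3 and 4 alone, 2 with them as a term, and 0 in each fit with 1 library left out. Its share of all genes was 0% in the main fit and 0.699% by DESeq2. With WT libraries 3 and 4 alone it was 0.4%, and with them as a term 1.23%. The cause of these changes was not tested.

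With the replicate number as a block, 65 members were called with CM in WT. There like-numbered libraries correlated, but unlike-numbered ones on the same side of the split of the WT libraries correlated about as much. Pairing by number was thus not shown in WT. KO libraries share only a number, and there the block gave 36 members called with CM. That was 40% of the members, against 50.1% of all genes tested. Between genotypes the block gave 0 in control medium and 0 in CM, and the interaction had 3. The shares of all genes called were 0.668% in control medium, 0.273% in CM and 1.54% for the interaction.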
